A study of Mus musculus with 6 samples.

Results

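The genes described here encode the secreted growth factors VEGF-A (Vegfa) and VEGF-B (Vegfb), the VEGF receptors VEGFR2 (Kdr) and VEGFR1 (Flt1), the neuropilin co-receptors (Nrp1 and Nrp2), the angiopoietins (Angpt1 and Angpt2) and the angiopoietin receptors TIE2 (Tek) and TIE1 (Tie1). They were found by name: every non-control probe of the array whose printed gene name equals one of these symbols was taken. The 10 genes had 22 probes and 49 spots, out of 27574 genes and 41174 probes on the array. Of the 22 probes, 17 probes of 9 genes passed the filters on dim signal and were tested. The 5 others were not well above background in either dye on any array: both probes of Angpt1, 1 of the 2 probes of Kdr and 2 of the 5 probes of Flt1.

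VEGF-A is released by many cells, with more of its messenger RNA made when oxygen is low, and acts on endothelial cells through VEGFR2, the receptor that drives vessel sprouting. VEGFR1 binds VEGF-A tightly but signals weakly and is often described as a trap for it, VEGF-B binds VEGFR1 but not VEGFR2, and neuropilins hold VEGF-A close to its receptors. Angiopoietin 1, made by cells around vessels, activates TIE2 and keeps vessels quiet and sealed, angiopoietin 2 is stored in and released by endothelial cells and often opposes it, and TIE1 is a partner of TIE2 that binds neither of them by itself with high affinity.

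The samples were 6 subcutaneous tumors of Hepa1-6, a mouse hepatoma line, grown in female C57Bl/6 mice. Tumors 303, 313 and 318 were taken at day 15 after inoculation and tumors 302, 307 and 312 at day 10. Each tumor's RNA carried Cy5 on its own two-colour array, with Cy3 on a common reference labelled as blood RNA of an untreated C57Bl/6 female mouse. The dyes were not swapped, and any dye bias of a probe is therefore part of its ratio. Which mouse bore which tumor is not labelled, and p-values rest on the spread among these 6 samples alone. A subcutaneous graft of a cultured line holds line-derived tumor cells and host cells together. In such bulk RNA, fewer cells of a type and less RNA per cell cannot be told apart.

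Some facts of the whole arrays touch the values that follow. The share of spots well above background was 52.4% to 58.5% in Cy5 and 47.5% to 52.8% in Cy3, by array. The 3 day 15 arrays shared 1 slide and the 3 day 10 arrays another, so slide and day cannot be told apart. On the array of tumor 312 an area with 15.1% of the spots had lost signal. The reference went against its label: all 7 hepatoma markers, among them Afp and Alb, gave clear Cy3 signal (well above background) on each of the 6 arrays, while the blood leukocyte marker S100a8 was so on none with any probe, and Hba-a1, a haemoglobin gene, had a log2 ratio of 3.76 toward the tumors. A ratio is therefore given here as tumor over this reference RNA, not as tumor over blood. Tumor 313 stood apart in the median log2 ratio of the hepatoma markers, which was -2.48, against 2.22 to 2.95 in the other 5 tumors. Not every marker was low there: Gpc3 read 5.13, against 4.73 to 5.48 in the others. In Cy5 the tumors carried endothelial RNA, with 10 of 13 endothelial markers well above background on all 6 arrays.

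The reference sequences just upstream of 6 of these genes are given so that the regulatory DNA beside the measured genes can be read. Vegfa and Nrp2 are a ligand and a coreceptor whose ratios were compared across tumors, Kdr and Flt1 are the VEGF receptors, and Tek and Tie1 the TIE receptors. Each is the 250 bases before the annotated start in RefSeq on GRCm38.p6, written 5′ to 3′ on the strand of the gene. Capitals mark the letters ACGTG and GCGTG, the core of the hypoxia response element, and AGGAAG and CGGAAG, which hold the core of ETS factor sites, on either strand. Vegfa has a second annotated start in the RefSeq table, whose window is not shown.
Vegfa, chr17:46032378-46032627, minus strand: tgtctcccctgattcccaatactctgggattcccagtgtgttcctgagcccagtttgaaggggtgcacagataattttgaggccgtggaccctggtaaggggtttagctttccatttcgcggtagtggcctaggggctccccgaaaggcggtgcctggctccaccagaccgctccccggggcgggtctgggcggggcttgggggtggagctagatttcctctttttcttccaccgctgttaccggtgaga
Nrp2, chr1:62703067-62703316, plus strand: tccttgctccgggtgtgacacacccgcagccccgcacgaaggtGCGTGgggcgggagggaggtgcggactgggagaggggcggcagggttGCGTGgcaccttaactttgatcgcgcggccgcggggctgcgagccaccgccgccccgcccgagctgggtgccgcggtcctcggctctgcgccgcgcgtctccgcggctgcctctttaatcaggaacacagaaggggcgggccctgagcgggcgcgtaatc
Kdr, chr5:75978456-75978705, minus strand: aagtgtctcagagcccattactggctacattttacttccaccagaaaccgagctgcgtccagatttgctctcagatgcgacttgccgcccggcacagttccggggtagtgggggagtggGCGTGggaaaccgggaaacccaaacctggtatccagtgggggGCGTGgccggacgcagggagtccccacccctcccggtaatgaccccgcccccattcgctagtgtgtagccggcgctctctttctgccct
Flt1, chr5:147726012-147726261, minus strand: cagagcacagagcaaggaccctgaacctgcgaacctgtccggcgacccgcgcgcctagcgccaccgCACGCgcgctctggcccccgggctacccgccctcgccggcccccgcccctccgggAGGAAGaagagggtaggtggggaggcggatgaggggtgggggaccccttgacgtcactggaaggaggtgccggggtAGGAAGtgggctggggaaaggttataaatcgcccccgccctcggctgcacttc
Tek, chr4:94739039-94739288, plus strand: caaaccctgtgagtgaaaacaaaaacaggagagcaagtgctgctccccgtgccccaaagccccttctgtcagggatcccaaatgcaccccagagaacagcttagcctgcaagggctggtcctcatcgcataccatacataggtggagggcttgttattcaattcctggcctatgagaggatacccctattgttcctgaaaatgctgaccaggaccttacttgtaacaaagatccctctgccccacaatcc
Tie1, chr4:118489850-118490099, minus strand: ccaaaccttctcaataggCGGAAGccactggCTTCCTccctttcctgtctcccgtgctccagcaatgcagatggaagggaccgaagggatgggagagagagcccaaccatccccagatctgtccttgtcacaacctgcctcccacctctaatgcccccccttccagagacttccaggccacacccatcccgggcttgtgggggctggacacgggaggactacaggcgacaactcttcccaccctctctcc

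The RefSeq table held 9 such windows for 8 of the 10 genes. GCGTG occurred in 6 of the 9 windows, against 28.2% of 32851 mouse windows of the same length. ACGTG occurred in 1 window, that of the second Vegfa start, against 16.6% of all. That window also held GCGTG, and on the strand of the gene it lies downstream of the first Vegfa start, not upstream of it. AGGAAG occurred in 3 windows, against 29.5%, and CGGAAG in 1, that of Tie1, against 13.6%. No motif searched overlapped another in the windows shown. By first base, Kdr had GCGTG at positions -131 and -89 from its start, and Flt1 had AGGAAG at -129 and -53 from its own. The windows of Tek and of the first Vegfa start held none of these letters. The G and C content of the 9 windows ran from 51.2% to 76.4%, with a median of 52.4% over all windows. A match is a description of letters and not a measured binding site.

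Against the reference, 7 of the 9 tested genes were called higher in the tumors, Vegfa, Kdr, Flt1, Nrp1, Nrp2, Tek and Tie1, and 0 were called lower. A call needed a Benjamini-Hochberg adjusted p under 0.05 over all tested probes in limma and a log2 ratio of at least 1 in size. All 6 tested receptor genes were among the 7, and of the 3 tested ligands only Vegfa was. Over all 16306 tested genes, 25.5% were called higher and 9.78% lower. By value of the brightest probe, 8 of the 9 genes, all but Angpt2, lay above the reference in all 6 tumors, beside 43.4% of all genes. The second Vegfb probe lay above it in 2 of 6 tumors only, and 1 of the Vegfa probes in 5 of 6. The 7 genes were also called without tumor 313 and without tumor 312, and 6 of them, Vegfa being lost, without tumor 307.

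**Figure D1:**
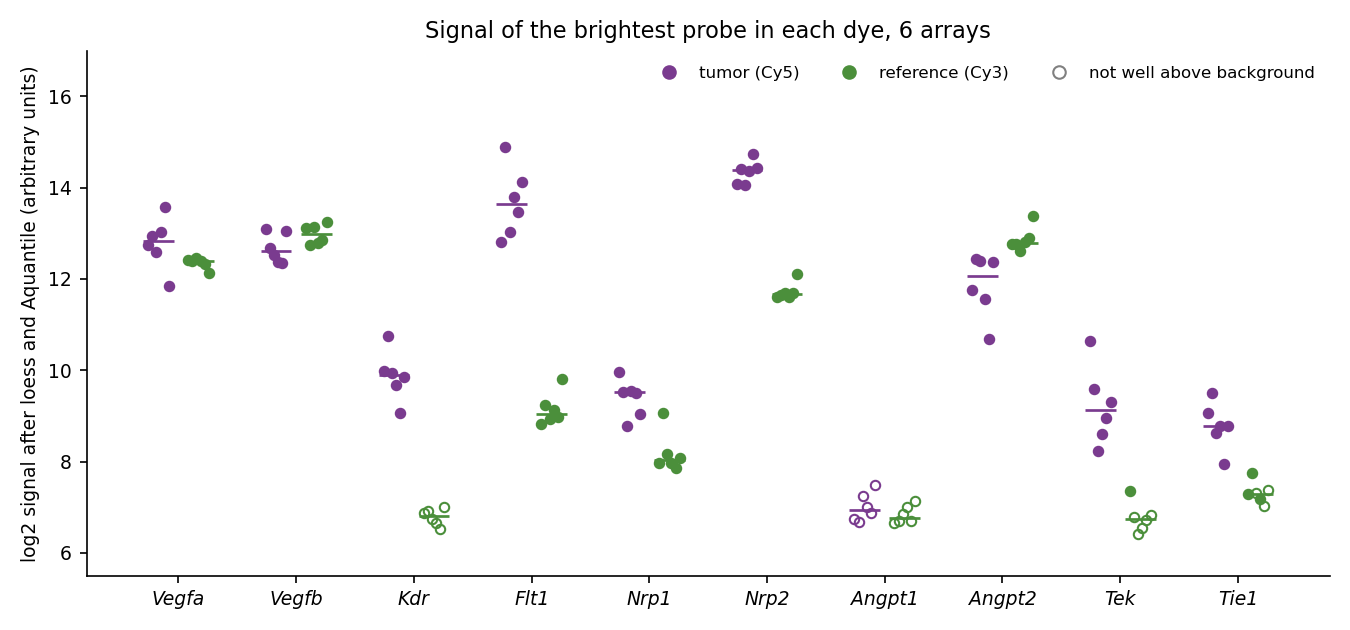
Log2 signal of the brightest probe of each of the 10 genes (y axis), with tumor (Cy5) left of reference (Cy3). Each point is 1 array and a bar marks the median. The arbitrary units come from normexp correction and quantile scaling of each dye on its own, although the axis title names loess and Aquantile. The difference between the dyes shown here is therefore not the log2 ratio. Open points are not well above background. The reference signal of Kdr and both signals of Angpt1 are at background on all 6 arrays, while Vegfb and Angpt2 are bright in both dyes.

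Vegfa was well above background in both dyes on all 6 arrays with all 3 of its probes. Its brightest probe, A_51_P482552, which is printed 10 times per array, had log2 ratios of 1.10, 1.29 and 0.86 in day 15 tumors 303, 313 and 318, and of 1.41, 2.01 and 0.38 in day 10 tumors 302, 307 and 312. Every tumor lay above the reference, tumor 307 highest and tumor 312 lowest, and both extremes belonged to day 10. The mean was 1.18 ± 0.55 (SD, n = 6 tumors; limma adjusted p = 0.0016), a ratio of 2.26. The mean was too small for a call with the scanner's processed signals (0.91) and without tumor 307 (0.99). It was 0.30 (limma adjusted p = 0.17) with median centring in place of loess, a scaling that moved the median of all genes to -0.34, against 0.22 as reported. Relative to that median Vegfa was at 0.95 as reported and 0.64 with median centring. The other probes gave the same direction with other sizes. A_52_P249424 averaged 0.70 (limma adjusted p = 0.022), too small for a call, and A_52_P638895 averaged 2.02. The last value rested in part on tumor 312, where this probe read 3.87, against 1.03 to 2.29 in the other 5 tumors, and where its Cy3 signal was 8.87 on the log2 scale, against 10.93 to 11.56 elsewhere. Its mean without tumor 312 was 1.65, and 4 of 21 neighbouring spots on that array were also low in Cy3 by more than 1 on the log2 scale.

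Vegfb, the VEGFR1 ligand, was bright in both dyes and near the reference. Its brightest probe had log2 ratios of 0.82, 0.74 and 0.17 in day 15 tumors 303, 313 and 318 and of 0.36, 0.27 and 0.58 in day 10 tumors 302, 307 and 312. All lay above 0, and the days overlapped. The mean of 0.49 ± 0.26 (SD, n = 6) passed the adjusted threshold (limma adjusted p = 0.0049) but not the minimum size, and the second probe of Vegfb averaged -0.14 (limma adjusted p = 0.19). With median centring the first probe was at -0.42, and relative to the median of all genes it was at 0.27 as reported and -0.07 with median centring, so no direction is given for Vegfb.

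Kdr, the main signalling VEGF receptor of endothelium, was not well above background in the reference. Its brightest probe, also printed 10 times, had log2 ratios of 3.38, 4.13 and 3.35 in day 15 tumors 303, 313 and 318 and of 3.27, 2.55 and 2.52 in day 10 tumors 302, 307 and 312. All tumors were far above the reference, and the lowest day 15 value stood just above the highest day 10 value. Since Cy3 was well above background on none of the 6 arrays, the size is a bound for the processing used. Kdr was at least 7.97-fold higher in the tumors. Its mean log2 ratio of 3.20 was tested against 0 (limma adjusted p = 6.2e-06), and the bound was not. For such a bound the mean tumor signal is compared with a floor for the reference, which on an array is the dimmest clearly detected probe or the probe itself if that is brighter. The bound remains exposed to dye bias and to the processing. The mean log2 ratio of Kdr was 2.79 without background correction and 2.97 with median centring. The second Kdr probe was at background in both dyes and gives no value.

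By the brightest probe of each gene, Flt1 had the highest measured ratio in each of the 6 tumors. Its brightest probe had log2 ratios of 4.58, 6.34 and 4.65 in day 15 tumors 303, 313 and 318 and of 5.34, 5.09 and 5.17 in day 10 tumors 302, 307 and 312. Tumor 313 was highest, and the day 10 tumors lay within the day 15 range. The mean was 5.20 ± 0.64 (SD, n = 6; limma adjusted p = 5e-06), and 4.91 without tumor 313. The 2 other tested Flt1 probes averaged 3.64 and 3.22, so the size of the ratio depended on the probe while the direction did not.

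Both neuropilin genes, whose products also bind class 3 semaphorins, were called higher. The Nrp2 probe had log2 ratios of 3.22, 3.55 and 3.12 in day 15 tumors 303, 313 and 318 and of 3.56, 3.87 and 3.23 in day 10 tumors 302, 307 and 312, with a mean of 3.42 ± 0.28 (SD, n = 6; limma adjusted p = 1e-06). Nrp1 was lower and its probes spread more. The brightest read 2.34, 0.81 and 0.78 in day 15 tumors 303, 313 and 318 and 1.90, 1.88 and 1.0 in day 10 tumors 302, 307 and 312. Tumors 313, 318 and 312 stood below the others in it, at both days. In tumor 313 its Cy3 signal was 9.07 on the log2 scale, against 7.86 to 8.18 in the other tumors. The other Nrp1 probes read 2.43 and 1.59 in tumor 313. The mean of the brightest probe was 1.45 ± 0.67 (SD, n = 6; limma adjusted p = 0.0014), and the other Nrp1 probes averaged 2.13 and 1.25.

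Of the angiopoietin ligands, neither was called in either direction. Angpt1 gave no ratio, since neither of its 2 probes was well above background in either dye on any array. Its brighter probe had log2 signals of 6.68 to 7.49 in Cy5 and 6.66 to 7.15 in Cy3. Angpt2 was bright in both dyes, with log2 signals of 10.68 to 12.43 in the tumors and 12.61 to 13.37 in the reference. Each dye was scaled on its own for these signals, so their difference is not the log2 ratio. The log2 ratios of Angpt2 were -0.24, 0.46 and 0.51 in day 15 tumors 303, 313 and 318 and -0.48, -1.52 and -0.28 in day 10 tumors 302, 307 and 312. The 3 day 10 tumors and tumor 303 were below the reference and the other 2 above it. The mean of -0.26 ± 0.74 (SD, n = 6; limma adjusted p = 0.23) passed no threshold. With processed signals it was -0.55 (limma adjusted p = 0.048), too small for a call. With median centring it was -1.13 and called lower (limma adjusted p = 0.0007). Relative to the median of all genes Angpt2 was at -0.48 as reported and -0.78 with median centring.

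Tek and Tie1, receptors of endothelial cells, were both called higher. The brightest Tek probe had log2 ratios of 3.68, 2.94 and 1.65 in day 15 tumors 303, 313 and 318 and of 2.07, 2.25 and 2.04 in day 10 tumors 302, 307 and 312. The day 15 tumors reached above and below the day 10 tumors, which lay close together. The mean was 2.44 ± 0.74 (SD, n = 6; limma adjusted p = 0.00013), with Cy3 above background on 1 of 6 arrays only, so its size is less secure. The second Tek probe was dim, with a mean of 0.77, and in Cy3 it was at background on all arrays. Tie1 had 1.96, 1.96 and 1.36 in day 15 tumors 303, 313 and 318 and 1.70, 0.76 and 1.14 in day 10 tumors 302, 307 and 312, with a mean of 1.48 ± 0.48 (SD, n = 6; limma adjusted p = 0.00013) and Cy3 above background on 3 of 6 arrays.

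**Figure D2:**
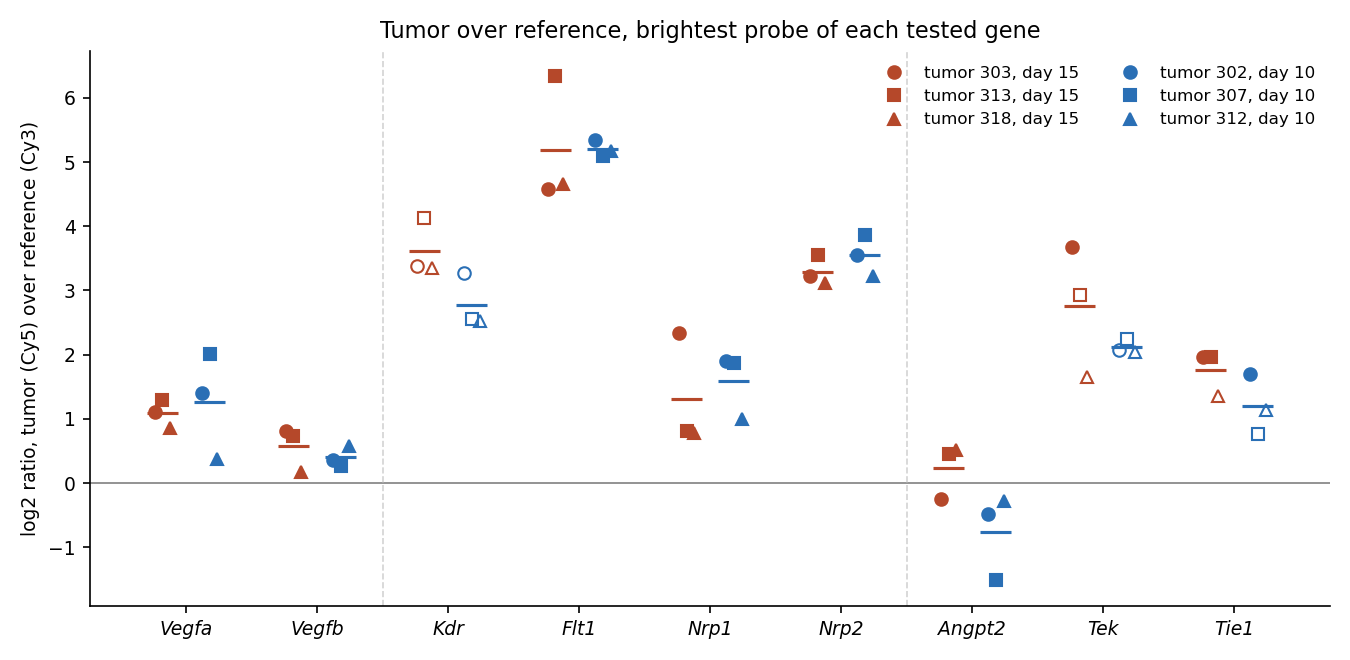
Log2 ratio of tumor over reference (y axis) for the brightest probe of the 9 tested genes, day 15 tumors left of day 10 tumors, 1 point per tumor and a bar at each day's mean. Open points mark arrays on which the reference signal was not well above background. Every tumor lies above 0 for all genes but Angpt2, and Flt1 has the highest measured ratio in each.

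For the 6 genes well above background in the reference on all arrays, the order by mean log2 ratio was Flt1, Nrp2, Nrp1, Vegfa, Vegfb and Angpt2. Flt1 lay above Nrp2 in 6 of 6 tumors, and the range of Nrp2 was apart from those of Flt1 and Nrp1. This place of Flt1 holds for its brightest probe only. Its other tested probes averaged 3.64 and 3.22, on both sides of Nrp2 at 3.42. In tumor 303 they read 3.16 and 2.60, below Nrp2 at 3.22. The ranges of the later neighbours overlapped. Nrp1 and Vegfa differed by 0.27 ± 0.63 within tumors (SD, n = 6), less than their spread, while Vegfa lay above Vegfb and Vegfb above Angpt2 in 5 of 6 tumors each. Kdr, Tek and Tie1 were given no place, since their ratios moved with the treatment of the dim reference signal: with processed signals the means were 4.68 for Kdr, 3.71 for Tek and 1.84 for Tie1, against 3.20, 2.44 and 1.48 as reported, and Kdr and Tek then stood above Nrp2 at 3.17. The order compares each gene's ratio to its own reference signal and not the amounts of the RNAs.

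Between the days, 0 of the 9 genes were called at an adjusted p under 0.05 (limma, adjusted p = 1.0 for each), where over 15804 tested genes 0.0127% were called higher and 0.0443% lower at day 15. Without adjustment, Kdr and Angpt2 had p under 0.05, both toward day 15, beside 2.44% of all genes toward day 15 and 1.58% toward day 10. They were also the 2 genes whose days did not overlap, beside 5.06% of all genes higher and 3.79% lower in that way.

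Kdr averaged 3.62 ± 0.44 at day 15 and 2.78 ± 0.43 at day 10 (SD, n = 3 each), a difference of 0.84 on the log2 scale (SE 0.30, limma adjusted p = 1.0). Without tumor 313, the one with a low hepatoma median, the difference was 0.59, and it was 0.44 with median centring and 0.32 with processed signals. The days were separated by little: tumor 318 read 3.35 and tumor 302 read 3.27, each a mean over 10 spots. The SD of single spots was 0.16 in tumor 318 and 0.15 in tumor 302, which is not the error of these means. In the Cy5 signal alone the difference was 0.69 (SE 0.33, limma adjusted p = 0.84).

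Angpt2 averaged 0.24 ± 0.42 at day 15 and -0.76 ± 0.66 at day 10 (SD, n = 3 each), a difference of 1.0 on the log2 scale (SE 0.38, limma adjusted p = 1.0). Tumor 307 was the lowest, and without it the difference was 0.63, as it was with median centring. In the Cy5 signal alone it was 0.66 (SE 0.46, limma adjusted p = 0.84), while the Cy3 signal of Angpt2 differed by -0.31 between the arrays of the days (SE 0.18, limma adjusted p = 0.59). In Cy5 alone, 0 of the 9 genes had a p under 0.05 before adjustment, beside 3.01% of all genes, and 0% of all genes passed with it.

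The other endothelial receptor genes had positive but smaller values, 0.63 (SE 0.48) for Tek and 0.56 (SE 0.29) for Tie1. The Tek value was 0.17 without tumor 303, 0.28 with median centring and 0.21 with processed signals. For Tie1 these settings gave 0.15 and 0.25. Differences of day 15 minus day 10 were -0.18 (SE 0.40) for Vegfa, 0.17 (SE 0.21) for Vegfb, -0.01 (SE 0.47) for Flt1, -0.28 (SE 0.48) for Nrp1 and -0.26 (SE 0.22) for Nrp2. Vegfa is an example of how wide the days were: its day 10 tumors spanned 0.38 to 2.01, and its difference was -0.62 without tumor 312, 0.19 without tumor 307 and -0.56 with median centring. For the reference channel, which holds RNA of one description on all arrays, 0 of the 7 genes that could be tested differed between the arrays of the days in limma with adjustment, and 0 without it, beside 0% and 1.55% of 13927 genes.

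**Figure D3:**
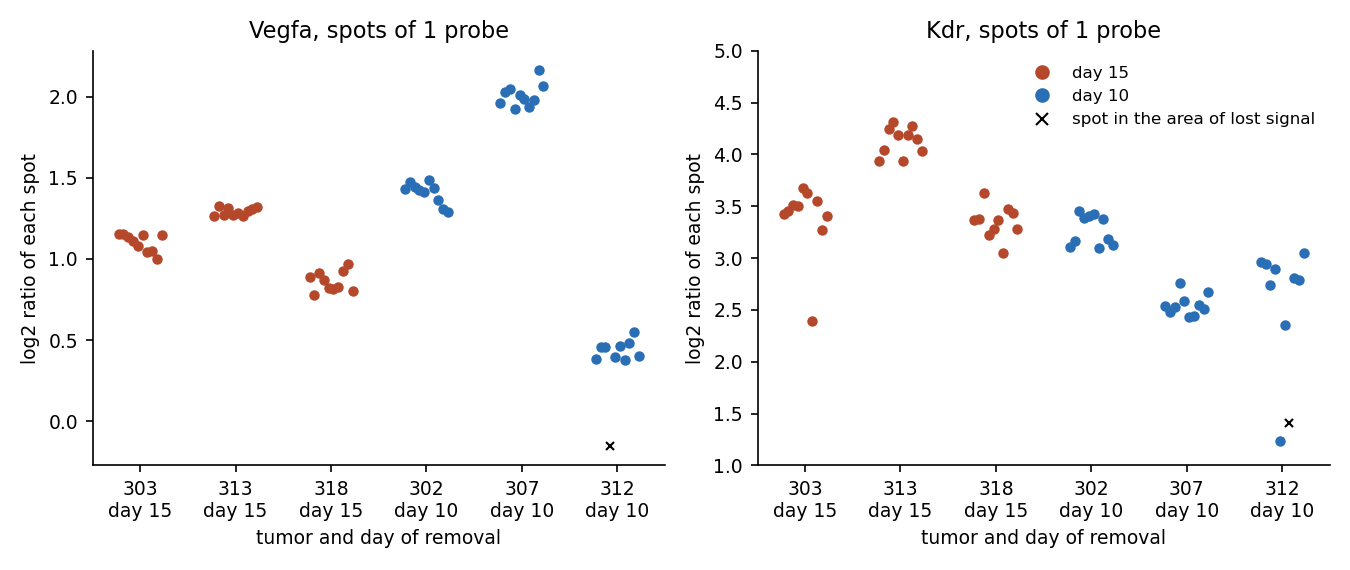
Log2 ratio (y axis) of each of the 10 spots of the brightest Vegfa probe (left) and Kdr probe (right) in each tumor, day 15 tumors left of day 10 tumors. Crosses are spots within the area of lost signal on the array of tumor 312. The Vegfa spots of a tumor lie close together apart from that 1 spot, whereas Kdr spots spread more, most of all in tumor 312.

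The 10 spots per array show how precisely single arrays measured these genes. For Vegfa the SD over spots ran from 0.02 to 0.07 in 5 tumors, below the differences between those tumors. In tumor 312 it was 0.20, and the 1 spot within the area of lost signal read -0.16, against 0.44 ± 0.06 for the 9 others. For Kdr the SD over spots was 0.10 to 0.37 in 5 tumors and 0.66 in tumor 312. These spots share 1 RNA sample and are not replicates of a day.

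Ligand was set against receptor within each tumor as the difference of their log2 ratios, a description with no test. By the brightest probe of each gene, the ligand stood below its receptor in all 6 tumors in 6 of the 7 pairs with a ligand. For Vegfa and Kdr the differences were -2.28, -2.84 and -2.49 in day 15 tumors 303, 313 and 318 and -1.87, -0.54 and -2.14 in day 10 tumors 302, 307 and 312. All day 15 tumors were below all day 10 tumors here, and tumor 307 was nearest to equality. Kdr was at background in the reference, so the size of these differences is not secure. For Vegfa and Flt1 they ran from -5.05 to -3.08, for Vegfa and Nrp2 from -2.85 to -1.86, and for Vegfb and Flt1 from -5.60 to -3.76.

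The pair of Vegfa and Nrp1 was the exception by the brightest probes, with 3 tumors on each side of 0 and a range of -1.24 to 0.49. This depended on the Nrp1 probe. The Nrp1 probe averaging 2.13 read above Vegfa in every tumor. Its log2 ratios were 2.63, 2.43 and 1.63 in tumors 303, 313 and 318 and 2.42, 2.15 and 1.52 in tumors 302, 307 and 312. With the Nrp1 probe averaging 1.25, Vegfa lay above Nrp1 in tumors 302 and 307 only. Vegfb lay below Nrp1 by 0.07 to 1.61 on the log2 scale. For Angpt2 and Tek the differences were -3.92, -2.48 and -1.13 in day 15 tumors 303, 313 and 318 and -2.56, -3.76 and -2.32 in day 10 tumors 302, 307 and 312, with the days overlapping and the size not secure for Tek either. In each tumor the ligand of highest ratio was Vegfa, except in tumor 312, where it was Vegfb.

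**Figure D4:**
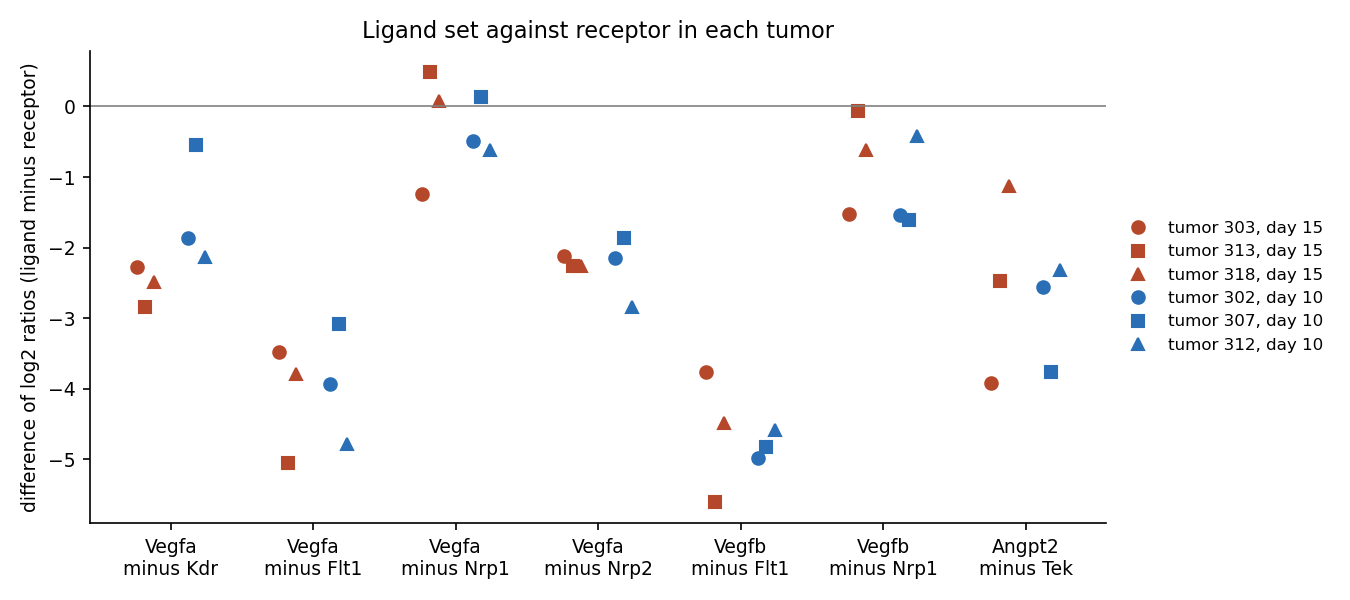
Difference of log2 ratios of the brightest probes, ligand minus receptor (y axis), for 7 ligand and receptor pairs in each of 6 tumors. Day 15 tumors are left of day 10 tumors. All points lie below 0 except for 3 tumors in the pair of Vegfa and Nrp1.

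Whether ligand and receptor varied together across tumors was tested for 9 pairs, over 6 tumors, with 2-sided exact permutation tests. None passed at an adjusted p of 0.05 by Pearson's r or Spearman's rho, and the smallest p that 6 tumors allow is 0.0028. Vegfa and Nrp2 came nearest, with r = 0.88 (exact permutation p = 0.015, adjusted p = 0.14) and rho = 0.83 (exact permutation p = 0.058, adjusted p = 0.53). Without tumors 307 and 312, the farthest in Vegfa, r was 0.95 over 4 tumors, and on deviations from the day means it was 0.92. In the tumor channel alone r was 0.42 (exact permutation p = 0.41, adjusted p = 0.98), below 0.48 for Vegfa and Nrp1 and 0.49 for Tek and Tie1. For Vegfa and the signalling receptors, r was 0.04 with Kdr (exact permutation p = 0.96) and 0.18 with Flt1 (exact permutation p = 0.70), while rho was 0.09 and 0.26. With Nrp1 its r was 0.49 and its rho 0.37 (exact permutation p = 0.35 and 0.50).

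The angiopoietin pair of Angpt2 and Tek had r = 0.04 and rho = -0.14 (exact permutation p = 0.95 and 0.80). Tek and Tie1 had r = 0.63 and rho = 0.54 (exact permutation p = 0.17 and 0.30), and r turned to -0.44 without tumors 303 and 313, so the relation rests on those tumors. Vegfb had r = 0.31 with Flt1 and 0.17 with Nrp1, and Kdr had r = -0.23 with Nrp1 (exact permutation p of 0.60, 0.76 and 0.64, with rho of 0.09, 0.49 and -0.09). Angpt1 and Tek could not be paired, since Angpt1 was at background.

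Among 30 hypoxia and glycolysis genes and 13 endothelial markers, the list's median in a tumor was set against the genes described here in 8 relations. The hypoxia median and Vegfa had r = 0.80 and rho = 0.77 over 6 tumors (exact permutation p = 0.050 and 0.10, adjusted p = 0.20 and 0.21). It fell to 0.17 without tumors 302 and 307, so the relation rests on those tumors, and was 0.94 on deviations from the day means. The endothelial median and Kdr had r = 0.81 and rho = 0.83 (exact permutation p = 0.033 and 0.058, adjusted p = 0.20 and 0.16), and r = 0.40 without tumors 312 and 313. In tumor 312 the endothelial markers Mmrn2, Erg and Icam2 read -0.08, -0.02 and -0.23, below their values in every other tumor. Correlations of the endothelial median with the 6 other genes ran from 0.23 to 0.70, and none passed adjustment.

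**Figure D5:**
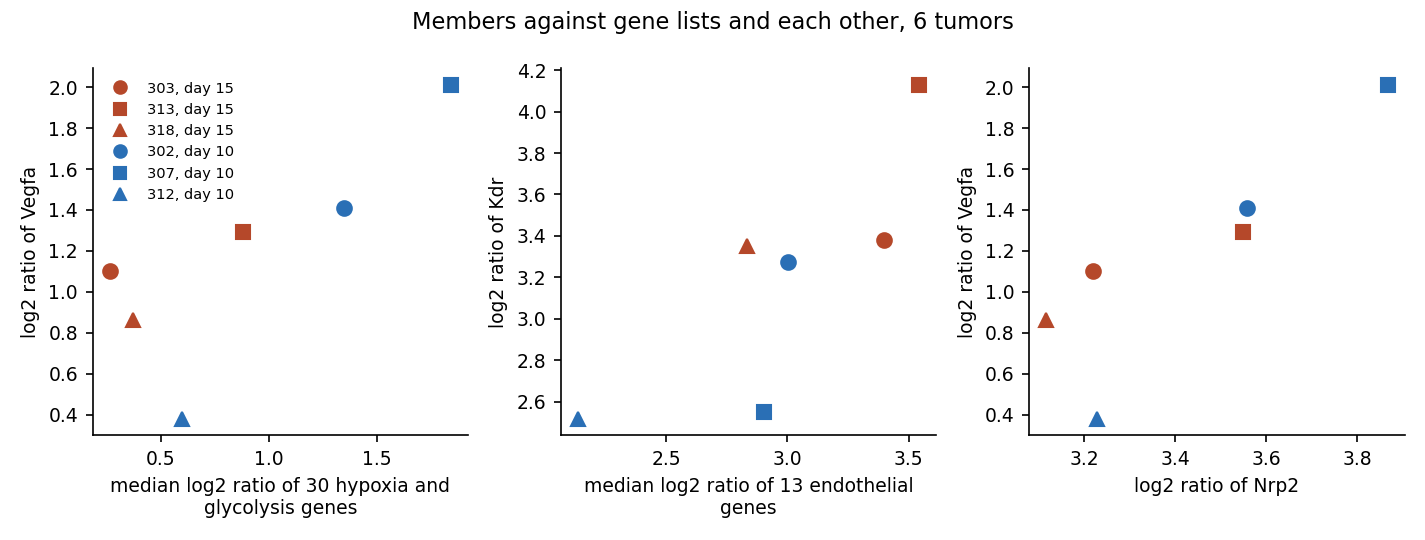
Log2 ratio of Vegfa against the median of 30 hypoxia and glycolysis genes, of Kdr against the median of 13 endothelial genes, and of Vegfa against Nrp2, 1 point per tumor. In the left panel tumors 302 and 307 are far to the right, and without them r is 0.17 in place of 0.80.

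The surrounding pathway genes were counted from lists chosen with earlier results of these data known. Beside all counts of calls below stand 25.5% of 16306 tested genes called higher and 9.78% called lower. Of 9 tested relatives of these ligands and receptors, 4 were called higher in tumor and 1 lower. Vegfd, a lymphatic growth factor, had a log2 ratio of 3.82 and Angptl4, an inhibitor of lipoprotein lipase, 2.31 over 5 arrays (its spot in tumor 318 was left out as an outlier), while Vegfc, another one, was lower at -1.97 on average. Of 11 tested semaphorin and plexin genes, whose products meet the neuropilins, 5 were higher and 0 lower, led by Plxnd1 at 3.44, a semaphorin receptor of endothelium, and Sema3b at 2.65. Of 26 tested genes of VEGF and TIE signalling and its targets, 20 were higher and 3 lower, with a median of 1.70, against 0.22 over all genes. Among them were Robo4 at 4.60, a receptor of endothelial cells, Ptprb at 3.91, the phosphatase that acts on TIE2, and Hey1, a Notch target, which was at least 14.2-fold higher. In the endothelial list 11 of 13 were higher, with a median of 3.06, and Cdh5, the VE-cadherin gene, was at least 36.1-fold higher. In the hypoxia list 13 of 30 were higher, with a median of 0.84, led by Adm, the adrenomedullin gene, at 4.81 and Epas1, the HIF-2 alpha gene, at 3.25.

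Between the days, 0 genes of these 5 lists were called in limma with adjustment. Without adjustment, 0 of 8 relatives, 1 of 11 semaphorin and plexin genes, 9 of 26 signalling genes, 6 of 30 hypoxia genes and 5 of 13 endothelial genes had p under 0.05 in either direction, beside 2.44% of all genes higher and 1.58% lower. Differences above 0 made up 55% of all genes. Endothelial medians per tumor were 3.40, 3.54 and 2.84 in day 15 tumors 303, 313 and 318 and 3.0, 2.90 and 2.14 in day 10 tumors 302, 307 and 312. Of 13 differences of day 15 minus day 10, 12 were positive, with a median difference of 0.60. In tumor 312 Mmrn2 read -0.08, Erg -0.02 and Icam2 -0.23, against 5.87 to 6.96, 3.42 to 4.52 and 0.95 to 1.72 in the other tumors. Their day differences of 2.63, 1.76 and 0.75 rest in part on that array. Signalling genes were positive in 21 of 26, with a median of 0.51. Among them Sox18 and Dll4 read -0.10 and -0.05 in tumor 312, against 2.21 to 3.66 and 0.80 to 1.80 in the other tumors. Hypoxia genes were positive in 3 of 30, with a median of -0.49, and their medians per tumor were 0.26, 0.88 and 0.37 at day 15 and 1.35, 1.85 and 0.60 at day 10, in the tumor order just given. The medians overlapped between the days in both lists. Over all genes the median difference was 0.02.

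Markers of other cells were counted between the days too, and only skeletal muscle genes were called. All 6 tested skeletal muscle genes were called lower at day 15 (limma adjusted p under 0.05), with list medians of -0.04 to 0.03 in the day 15 tumors and 3.59 to 4.19 in the day 10 tumors. Of 7 tested pericyte genes 0 were called, 5 had p under 0.05 before adjustment, 6 were positive, and the median was 0.82. Of 5 fibroblast markers 0 were called, 2 had p under 0.05 before adjustment, 5 were positive, and the median was 0.52. All 6 macrophage markers were positive with a median of 0.13, and 1 of 7 hepatoma markers was positive with a median of -1.56, with 0 called in either list and 0 under 0.05 before adjustment. Tumor 313 alone had a low median in the hepatoma list. The medians of this list were 2.22, -2.48 and 2.95 in tumors 303, 313 and 318 and 2.36, 2.23 and 2.86 in tumors 302, 307 and 312. The part of these markers in the values of Kdr, Angpt2 and the other genes was not tested.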

How the data were processed

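Per the labels and file headers, the deposited scanner files hold raw Cy5 and Cy3 intensity per spot from Agilent Feature Extraction 9.1.3.1, with the software's processed intensity and log10 ratio. The same log10 ratios make up the authors' deposited value table. With limma 3.58.1 in R 4.3.3, mean intensities were corrected with normexp (offset 50) against the median local background and normalized by loess within arrays, with control and outlier spots at weight 0. Spots of a probe were averaged. A gene was represented by its probe of highest mean log intensity. For the comparison with the reference, the mean of the 2 day means was tested against 0 on 24222 probes (well above background on 3 or more arrays, either dye). Day 15 was tested against day 10 on 23068 probes (the same in Cy5). Both used lmFit and eBayes (2-sided), and p-values were adjusted by Benjamini-Hochberg over all tested probes. The test against the reference leaves out the spread of the reference. The number of arrays limits the precision. Alternatives covered background, normalization, filters, probes, channel and left-out tumors. Named genes were all members, up to 4 called genes per list by size, and 5 most similar genes for Vegfa, Kdr, Angpt2 and Tek. Members, lists and tests were chosen with earlier results of these data known. A further probe under an older name of Nrp2 was outside the rule and not used here. Promoter letters are from RefSeq (GRCm38.p6). The array files name no genome build, and gene coordinates are not given.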

Additional observations from a re-analysis of the deposited data

How the results depend on the processing

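Of 135 comparisons of a gene with the reference under an alternative, 129 kept their direction and stayed called or not called, and of 144 between the days 136 did. These comparisons are not independent. Changes of the filter on dim probes left every ratio and day difference of these genes as reported, and the value table repeated those of the processed signals. Vegfa lost its call with median centring (0.30, limma adjusted p = 0.17) and, for size alone, with processed signals and the value table (0.91 each) and without tumor 307 (0.99). With median centring 1 gene, Angpt2 (-1.13), was called lower, and Vegfb reversed against the reference (-0.42) and between the days (-0.20). The Flt1 day difference, near 0, reversed without background correction (0.0079), with the mean of its probes (0.055) and without tumors 302 (0.06), 303 (0.30) and 318 (0.26). Vegfa reversed without tumor 307 (0.19) and Nrp1 in the tumor channel alone (0.062). The cause was not tested. Leaving out 1 tumor at a time gave day differences of -0.62 to 0.19 for Vegfa and -0.59 to 0.30 for Flt1, and 6 to 7 genes higher, 0 lower, 0 called between days, 0 in the reference channel and 0 pairs. Genes called higher and lower over the array were 4159 and 1594 as reported, 3239 and 4594 with median centring, 4447 and 3232 with processed signals and 4452 and 3230 with the value table. A fit with the slide as a block could not be made, since each slide held 1 day. Ligand and receptor differences in the tumor channel alone were not run, since they would set 1 probe's level against another's. No paired analysis was possible because the days share no replicate numbers. Dim Cy3 signals limit the sizes for Kdr, Tek and Tie1.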

Other observations

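As a description with no test, the genes whose log2 ratios were most like a member's over the 6 tumors were looked up among 9764 or 9765 genes well above background in both dyes on all arrays. For Kdr the nearest was Pdgfrb, a receptor of pericytes, with r = 0.99, then Snx12, Iftap, Rer1 and Mcee. For Vegfa they were Slc2a6, Ppp1r15b, Me2, Pxdc1 and Sertad1, with r from 0.97 to 0.98. For Angpt2 they were Ndufa13, Tssc4, Pcdhb20, Mmab and Hmgn2, from 0.97 to 0.99, and for Tek they were Rnpepl1, Nsmf, Sbno1, Tmeff2 and Vps26b, from 0.98 to 0.99. These are the top of a ranking over many genes and 6 tumors that share slides by day, and nothing was tested.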
